A study of Mus musculus with 20 samples.

Results

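Chaperone transcripts were measured by RNA sequencing in sorted mouse germinal centre B cells that carried or lacked the L252P allele of Myd88, the adaptor of Toll-like receptor and interleukin-1 receptor signalling. The chaperones described here are 10 heat shock genes, Hspa8, Hspa1a, Hspa1b, Dnajb1, Hsph1, Hsp90aa1, Hsp90ab1, Hspd1, Hspe1 and Hspa4. They were chosen by symbol, and all 10 were found among the 23382 genes of each of 20 libraries. The libraries formed 4 groups of 5. Mutant centrocytes fell in the gate B220+ FAS+ GL7+ CXCR4- CD86+ and came from Myd88L252P +/- Cgamma1Cre +/- mice, while control centrocytes came by the same gate from Myd88L252P WT Cgamma1Cre +/- mice. Mutant and control centroblasts came from the same 2 genotypes, with the gate B220+ FAS+ GL7+ CXCR4+ CD86-. All 4 groups therefore carried the Cre transgene at the C gamma 1 locus, which is transcribed in B cells that switch towards IgG1 and is used to recombine alleles in germinal centre B cells. Centrocytes are the light zone cells that test their receptor on antigen and T cell help, and centroblasts are the dividing dark zone cells. The sort separates them by CXCR4 and CD86, so these genes are no result. Whether the 5 libraries within each group stem from different mice is not stated in the labels. The p-values thus reflect the spread among libraries, which may be technical.

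Chaperones bind unfolded stretches of other proteins and let them fold or refold. The cytosolic HSP70 proteins Hspa8, Hspa1a and Hspa1b take clients from J-domain proteins such as Dnajb1, and nucleotide exchange factors of the HSP110 family, Hsph1 and Hspa4, release them. The HSP90 proteins Hsp90aa1 and Hsp90ab1 act on later steps of the folding of kinases and receptors, and Hspd1 with its lid Hspe1 forms the folding chamber of the mitochondrial matrix. In stress, heat shock factor 1 (Hsf1) binds heat shock elements, inverted repeats of the unit GAA or TTC, and raises the stress-inducible genes most. Hspa1a, Hspa1b, Dnajb1, Hsph1 and Hsp90aa1 were grouped as stress-inducible, Hspa8, Hsp90ab1 and Hspa4 as constitutive cytosolic, and Hspd1 and Hspe1 as mitochondrial.

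Expression is given in TPM, the abundance of a gene's transcripts per unit of length, with an equal total for each library. TPM is a share of a library's RNA, and in bulk samples fewer cells of a type and less RNA per cell cannot be told apart. Tests were made with limma on log2(TPM + 1) over the 11386 genes that reached 1 TPM in 5 or more libraries. A gene is said to have been called where its Benjamini-Hochberg adjusted p over all these genes was under 0.05. Log2 fold changes refer to TPM + 1 and so understate changes of genes with low values, and errors of mean levels are SD over n = 5 libraries. Of the 10 chaperones 8 could be tested, since Hspa1a and Hspa1b lay under 1 TPM everywhere. The germinal centre markers Bcl6, S1pr2 and Mef2b were present in all 20 libraries, at 154 to 387, 247 to 459 and 268 to 625 TPM, and 5 T cell markers summed to at most 5.1 TPM. Macrophage and neutrophil markers summed to a median of 138 TPM in mutant centrocytes and 129 TPM in control centrocytes, against 67.6 TPM in mutant centroblasts and 50.8 TPM in control centroblasts, with 10 of 11 found. Of 7 erythroid markers 5 were found, with Hba-a1 and Hba-a2 under 1 TPM in every library. Summed, the 5 had medians of 359 TPM in mutant and 148 TPM in control centrocytes, and 536 TPM in mutant and 142 TPM in control centroblasts. The part of these markers in the results was not tested. Myd88 itself is transcribed from either allele, so its TPM is no check of the genotype labels.

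Mutant centroblast libraries 4 and 5 stood apart from the other 18. Their ribosomal protein share of TPM was 11.2% and 15.1%, against 6.42% to 8.81% in the others, and they held 12895 and 12719 genes above 0, against 13053 to 14092. Fold changes of the chaperones that use mutant centroblasts are therefore also given without them.

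The 8 tested chaperones were abundant and differed widely among themselves. Hsp90ab1 was the highest, with a mean of 3012 TPM over the 20 libraries and rank 29 among all genes. Hspa8, the constitutive HSP70, averaged 881 TPM (rank 107), followed by Hspa4 at 337 TPM, Hsp90aa1 at 298 TPM, Hspe1 at 265 TPM and Hspd1 at 211 TPM. Dnajb1 averaged 97 TPM (rank 2122) and Hsph1 85.7 TPM (rank 2391). Neighbours in this order overlapped over the libraries, except that Hsp90ab1 (at least 1616 TPM) lay above every value of Hspa8 (at most 1199 TPM), and that Hspa8 (at least 591 TPM) lay above every value of Hspa4 (at most 441 TPM). The 10 genes together took a median of 0.57% of all TPM in mutant centrocytes, 0.524% in control centrocytes, 0.5% in mutant centroblasts and 0.493% in control centroblasts. Hsp90ab1 made up 51.3% to 61.9% of that sum.

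Hspa1a and Hspa1b, the classic heat-inducible HSP70 genes, were near 0. Hspa1a, a gene of 1 exon on the minus strand of chromosome 17 (GRCm38, 34969190 to 34972156), was 0, 0.0748, 0, 0.0846 and 0 TPM in mutant centrocytes 1 to 5, against 0.0716, 0.0788, 0, 0.0856 and 0.346 TPM in control centrocytes. In centroblasts it was 0.162, 0.0831, 0.325, 0.593 and 0.399 TPM in mutants, against 0.211, 0.0867, 0.142, 0.0784 and 0.638 TPM in controls. No group stood clear of its control. Hspa1b, the neighbouring copy (34956436 to 34959238), ranged over 0.168 to 0.543 TPM in mutant and 0.314 to 0.396 TPM in control centrocytes, and over 0.0656 to 0.643 TPM in mutant and 0.0708 to 0.556 TPM in control centroblasts. They held ranks 12739 and 12204 of all genes, far under the constitutive Hspa8. The log2 ratio of their summed level to Hspa8 averaged -11.43 in mutant centrocytes, -10.85 in control centrocytes, -10.75 in mutant centroblasts and -10.88 in control centroblasts. The 2 copies shared much of their sequence: 60.3% of the 50-base words of the Hspa1a transcript and 62.3% of those of Hspa1b also occurred in other genes. How reads with several matches were counted is not given in the sources used here, so the split between them is uncertain.

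Promoter windows are shown for Hspe1, Hsph1, Hspa1a and Hspa4, because they set a mitochondrial gene pair, an inducible exchange factor, an inducible HSP70 and a constitutive exchange factor side by side. They are RefSeq windows of 300 bases, 250 before and 50 after the start site on build GRCm38.p6, written 5′ to 3′ on the gene's strand, and capitals mark heat shock element pairs, GAANNTTC or TTCNNGAA. The windows are chr1:55087898-55088197 on the plus strand for Hspe1, chr5:149636287-149636586 on the minus strand for Hsph1, chr17:34972107-34972406 on the minus strand for Hspa1a and chr11:53300430-53300729 on the minus strand for Hspa4.
Hspe1: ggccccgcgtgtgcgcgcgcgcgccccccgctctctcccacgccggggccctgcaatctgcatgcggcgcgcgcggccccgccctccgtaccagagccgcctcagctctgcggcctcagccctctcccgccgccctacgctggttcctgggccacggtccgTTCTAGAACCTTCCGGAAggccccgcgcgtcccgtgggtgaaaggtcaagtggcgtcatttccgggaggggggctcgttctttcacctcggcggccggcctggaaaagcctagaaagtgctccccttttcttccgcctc
Hsph1: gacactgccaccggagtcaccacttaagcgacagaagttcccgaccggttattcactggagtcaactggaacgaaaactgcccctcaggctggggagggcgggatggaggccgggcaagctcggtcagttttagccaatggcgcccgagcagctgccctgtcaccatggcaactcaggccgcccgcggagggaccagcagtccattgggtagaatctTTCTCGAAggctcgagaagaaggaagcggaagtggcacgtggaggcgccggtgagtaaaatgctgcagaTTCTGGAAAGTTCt
Hspa1a: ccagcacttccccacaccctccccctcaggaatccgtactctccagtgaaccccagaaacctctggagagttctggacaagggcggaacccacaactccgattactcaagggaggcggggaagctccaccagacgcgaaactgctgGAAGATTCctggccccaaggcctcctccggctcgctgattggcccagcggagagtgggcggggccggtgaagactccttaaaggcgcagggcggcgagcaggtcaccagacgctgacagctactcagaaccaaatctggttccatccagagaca
Hspa4: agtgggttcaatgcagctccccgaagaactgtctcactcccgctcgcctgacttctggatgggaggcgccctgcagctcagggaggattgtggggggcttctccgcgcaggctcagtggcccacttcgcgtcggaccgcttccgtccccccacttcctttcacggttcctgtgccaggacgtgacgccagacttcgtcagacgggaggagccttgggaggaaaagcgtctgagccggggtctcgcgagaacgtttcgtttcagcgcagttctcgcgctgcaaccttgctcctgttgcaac

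Of the 10 chaperones 7 had windows, 10 windows in all, and none was used for Hspa8, Hsp90aa1 and Hsp90ab1. A pair in either order was found in 6 of the 10 windows, those of Hspa1a, Hspa1b and Hspe1, both of Hsph1 and 1 of Hspd1, against 15.1% of all 32851 windows of that length. A run of 3 units in alternating orientation with the same spacing, which overlaps the pairs it holds, was found in the 4 of these that belong to Hspd1, Hspe1 and Hsph1, against 0.603% of all windows. Several of the 10 overlap or are near copies, so they are not independent. Hspe1 held TTCTAGAA, GAACCTTC and TTCCGGAA beginning at positions -89, -84 and -79 from its start, so that they overlap. The window of Hspe1 shares 285 bases with a window of Hspd1 on the other strand (chr1:55087883-55088182), since the 2 genes run apart from a common stretch, and the matches of both are the same letters. The other Hspd1 window held no match. Hsph1 held TTCTCGAA at position -33 and TTCTGGAA and GAAAGTTC at positions 37 and 42. Hspa1a and Hspa1b both held GAAGATTC at position -104, and their windows differed at 4 of 300 bases. The windows of Dnajb1 and Hspa4 had no match. CCAAT on either strand was found in 6 of the 10, against 37.4% of all windows, and TATAAA on either strand in none, against 13.6%. The search says only which letters lie in these windows.

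**Figure D1:**
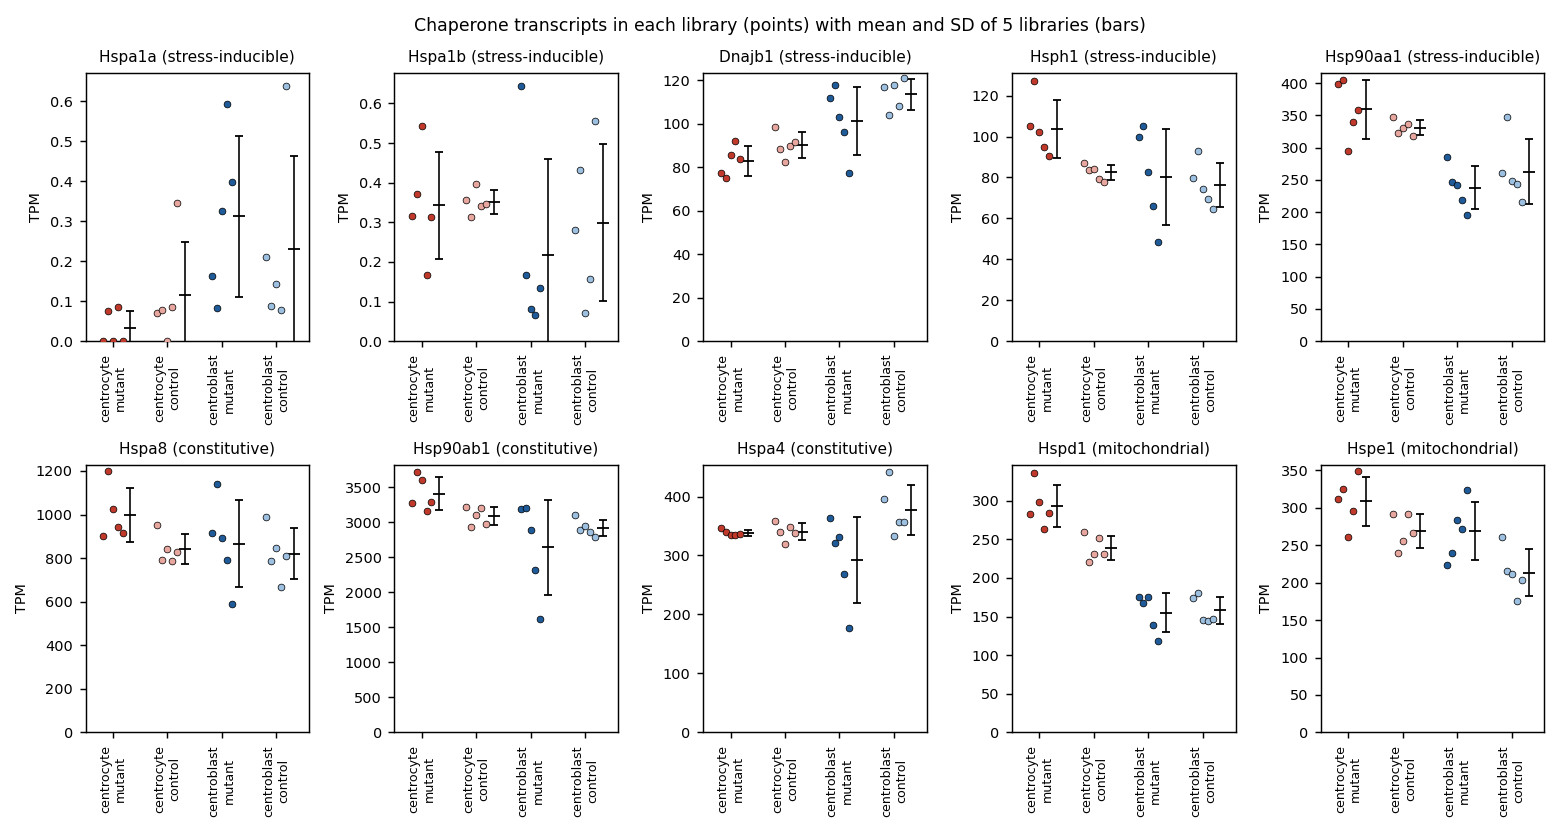
TPM (vertical axis, from 0, a separate scale per panel) of the 10 chaperones in each library (points), with the mean and SD of 5 libraries (bars), in mutant and control centrocytes (red) and mutant and control centroblasts (blue). Hspd1 lies higher in both centrocyte groups than in both centroblast groups, and Hspa1a and Hspa1b stay under 1 TPM.

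The comparison of centrocytes with centroblasts asks how the 2 zones differ within a genotype. In mutants 5 of the 8 tested chaperones were called, 4 higher and 1 lower in centrocytes, where 61.5% of all tested genes were called, 48.8% higher and 12.6% lower. The count for controls was 4 of 8, 3 higher and 1 lower in centrocytes, against 30.7% of all genes, 21.2% higher and 9.48% lower. The share called lay near that of all tested genes in mutants and above it in controls, from 8 genes only. The median log2 fold change of the 8 was 0.33 in mutants and 0.10 in controls. These medians lay near those of all tested genes, 0.34 and 0.14. With libraries scaled by the median of ratios, which sets the median of all genes near 0, 3376 genes were called higher and 3281 lower in mutant centrocytes (5561 and 1436 before). For control centrocytes the split was 2048 and 2009 (2419 and 1079 before).

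The mitochondrial chamber gene Hspd1 (HSP60, chromosome 1, 55077835 to 55088243, minus strand) rose in centrocytes of both genotypes. It was 283, 336, 299, 264 and 284 TPM in mutant centrocytes 1 to 5, against 176, 167, 176, 139 and 118 TPM in mutant centroblasts. The values of control centrocytes were 259, 221, 230.4, 252 and 231 TPM, against 174, 180.3, 146, 144 and 147 TPM in control centroblasts. Within each genotype all 5 centrocyte libraries lay above all 5 centroblast libraries. By limma the log2 fold change was 0.93 ± 0.10 (SE) in mutants (adjusted p = 4.26e-07) and 0.59 ± 0.10 in controls (adjusted p = 2.11e-04). Both calls held in every alternative run. Without mutant centroblast libraries 4 and 5 the value in mutants was 0.76, and with median-of-ratios scaling it was 0.57 in mutants and 0.45 in controls. All 5 centrocyte libraries lay above all 5 centroblast libraries for 28.7% of tested genes in mutants and 17% in controls.

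Its lid Hspe1 (HSP10, chromosome 1, 55088132 to 55091307, plus strand) behaved less evenly. In mutants it was 312, 325, 261, 296 and 349 TPM in centrocytes, against 224, 239.8, 284, 272 and 324 TPM in centroblasts, and the difference was not called (limma, log2 fold change 0.21 ± 0.11, adjusted p = 0.102). Without mutant centroblast libraries 4 and 5 it was called (0.31, adjusted p = 0.0243). Control centrocytes had 291, 239.9, 256, 292 and 266 TPM, against 261, 216, 211, 175 and 204 TPM in control centroblasts, and the rise was called (0.34 ± 0.11, adjusted p = 0.0206). The groups overlapped in both genotypes. The call in controls was lost with median-of-ratios scaling (0.20, adjusted p = 0.369), without control centroblast library 4 (0.27) and without control centrocyte library 4 (0.31).

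The level of Hspd1 relative to Hspe1 within a library does not depend on its scaling. The log2 ratio was -0.14, 0.05, 0.19, -0.17 and -0.30 in mutant centrocytes, against -0.35, -0.52, -0.69, -0.97 and -1.45 in mutant centroblasts. In controls it was -0.17, -0.12, -0.15, -0.21 and -0.20 in centrocytes, against -0.59, -0.26, -0.53, -0.28 and -0.47 in centroblasts. Centrocytes lay above centroblasts without overlap in both genotypes, and the 2 lowest mutant centroblast libraries were 4 and 5, without which the groups still did not overlap. Of all tested genes, 7.14% had such a ratio to Hspe1 in mutants, 3.57% in controls and 2.65% in both. Hspd1 shares 44.8% of its 50-base words with other genes, mostly the processed pseudogene Hspd1-ps3, and Hspe1 shares 36.1%, mostly with the gene model AC117239.2, so their levels are uncertain to the extent that reads were shared.

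Hsp90aa1, the stress-inducible HSP90 (chromosome 12, 110690605 to 110702728, minus strand), was also higher in centrocytes. It was 399, 405, 295, 340.1 and 358 TPM in mutant centrocytes, against 285, 246, 242, 219 and 196 TPM in mutant centroblasts. Control centrocytes had 347, 323, 330.5, 337 and 318 TPM, against 260.4, 347, 249, 243 and 215 TPM in control centroblasts. The groups stood apart in mutants, and in controls only centroblast library 2 reached the centrocyte values. The log2 fold change was 0.60 ± 0.11 in mutants (limma, adjusted p = 1.75e-04) and 0.35 ± 0.11 in controls (adjusted p = 0.0244). With median-of-ratios scaling neither was called (0.24, adjusted p = 0.0592 in mutants and 0.21, adjusted p = 0.136 in controls), and without mutant centroblasts 4 and 5 the value in mutants was 0.47 (adjusted p = 0.00231). The call in controls was also lost when control centroblast library 3, 4 or 5 was left out (0.33, 0.33 and 0.28).

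The constitutive Hsp90ab1 (chromosome 17, 45567775 to 45573271, minus strand) was 3276, 3716, 3600.5, 3163 and 3283 TPM in mutant centrocytes, against 3186, 3199.6, 2888, 2315 and 1616 TPM in mutant centroblasts. The values of control centrocytes were 3214, 2930.5, 3096, 3199.8 and 2973 TPM, against 3097, 2891, 2949, 2861 and 2793 TPM in control centroblasts. The low values were mutant centroblasts 4 and 5, and elsewhere the groups ran close together. The rise was called in mutants (limma, log2 fold change 0.41 ± 0.13, adjusted p = 0.00843) but not without those 2 libraries (0.14, adjusted p = 0.0666), with median-of-ratios scaling (0.05, adjusted p = 0.651) or when only mutants were fitted (adjusted p = 0.0547). In controls it was 0.08 (adjusted p = 0.664). The log2 ratio of Hsp90aa1 to Hsp90ab1 was -3.25 ± 0.21 in mutant centrocytes, -3.22 ± 0.02 in control centrocytes, -3.44 ± 0.25 in mutant centroblasts and -3.49 ± 0.25 in control centroblasts (SD, n = 5 each). These ratios overlapped between zones in both genotypes. Hsp90aa1 shares 58.5% of its 50-base words with other genes, and Hsp90ab1 4.49%.

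Dnajb1, a J-domain partner of HSP70 that is strongly induced by heat (chromosome 8, 83608193 to 83612653, plus strand), ran the other way. It was 77.4, 75, 85.7, 92.1 and 83.7 TPM in mutant centrocytes, against 112, 118, 103, 96.4 and 77.5 TPM in mutant centroblasts. Control centrocytes had 98.6, 88.5, 82.6, 90 and 91.6 TPM, against 117, 104, 118, 108 and 121 TPM in control centroblasts. All control centrocytes lay below all control centroblasts, as for 9.51% of tested genes, while mutant centroblast 5 fell among the mutant centrocytes. It was lower in centrocytes by limma in mutants (log2 fold change -0.28 ± 0.10, adjusted p = 0.0168) and in controls (-0.33 ± 0.10, adjusted p = 0.0129). Without mutant centroblast libraries 4 and 5 the value in mutants was -0.42 (adjusted p = 1.92e-04), and with median-of-ratios scaling it was -0.63 in mutants and -0.47 in controls. The call in mutants was lost without mutant centroblast library 2 (-0.22, adjusted p = 0.0552) and when only mutants were fitted (adjusted p = 0.0676).

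Among the HSP70 machinery Hspa8 (chromosome 9, 40800984 to 40810087, plus strand) was called in neither genotype in the fit reported. It was 901, 1199, 1027, 941 and 914 TPM in mutant centrocytes, against 917, 1138, 893, 790.4 and 591 TPM in mutant centroblasts (limma, log2 fold change 0.23, adjusted p = 0.139). The values of control centrocytes were 954, 793, 843, 787 and 830.2 TPM, against 989, 788, 847, 666 and 810.3 TPM in control centroblasts (0.04, adjusted p = 0.816). The groups overlapped in both. Without mutant centroblasts 4 and 5 the value in mutants was 0.02 (adjusted p = 0.892). With median-of-ratios scaling both values turned negative (-0.13 in mutants and -0.10 in controls), and 73.2% of its 50-base words occur in other genes, the highest share of the 10.

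The exchange factor Hsph1 (HSP105, chromosome 5, 149614287 to 149636376, minus strand) was 105, 127, 102, 94.7 and 90.5 TPM in mutant centrocytes, against 99.7, 105, 82.8, 66.1 and 48.6 TPM in mutant centroblasts. Control centrocytes had 87.1, 83.8, 83.9, 79.3 and 78 TPM, against 79.9, 92.7, 74.4, 69.4 and 64.8 TPM in control centroblasts. The groups overlapped in both genotypes. The rise in mutants (limma, log2 fold change 0.41 ± 0.15, adjusted p = 0.0272) was lost without mutant centroblasts 4 and 5 (0.11, adjusted p = 0.416), with median-of-ratios scaling (0.05, adjusted p = 0.658), when only mutants were fitted (adjusted p = 0.0905) and without mutant centrocyte 2 (0.33). In controls it was 0.12 (adjusted p = 0.579).

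Hspa4 (chromosome 11, 53259814 to 53300457, minus strand), the related constitutive exchange factor, was 347, 339, 335, 335 and 337 TPM in mutant centrocytes, against 364, 321, 330.5, 269 and 177 TPM in mutant centroblasts. The values of control centrocytes were 358, 339, 319, 349 and 338 TPM, against 395, 441, 333, 357 and 356 TPM in control centroblasts. It was nearly constant in mutant centrocytes, with a coefficient of variation of 1.5%. It was not called in mutants (limma, log2 fold change 0.25, adjusted p = 0.0965) or in controls (-0.14, adjusted p = 0.443). Without mutant centroblasts 4 and 5, the 2 lowest libraries, the value in mutants was 0.00 (adjusted p = 0.991). With median-of-ratios scaling it was called lower in control centrocytes (-0.28, adjusted p = 0.0157), and without mutant centroblast 1 higher in mutant centrocytes (0.34, adjusted p = 0.0229).

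**Figure D2:**
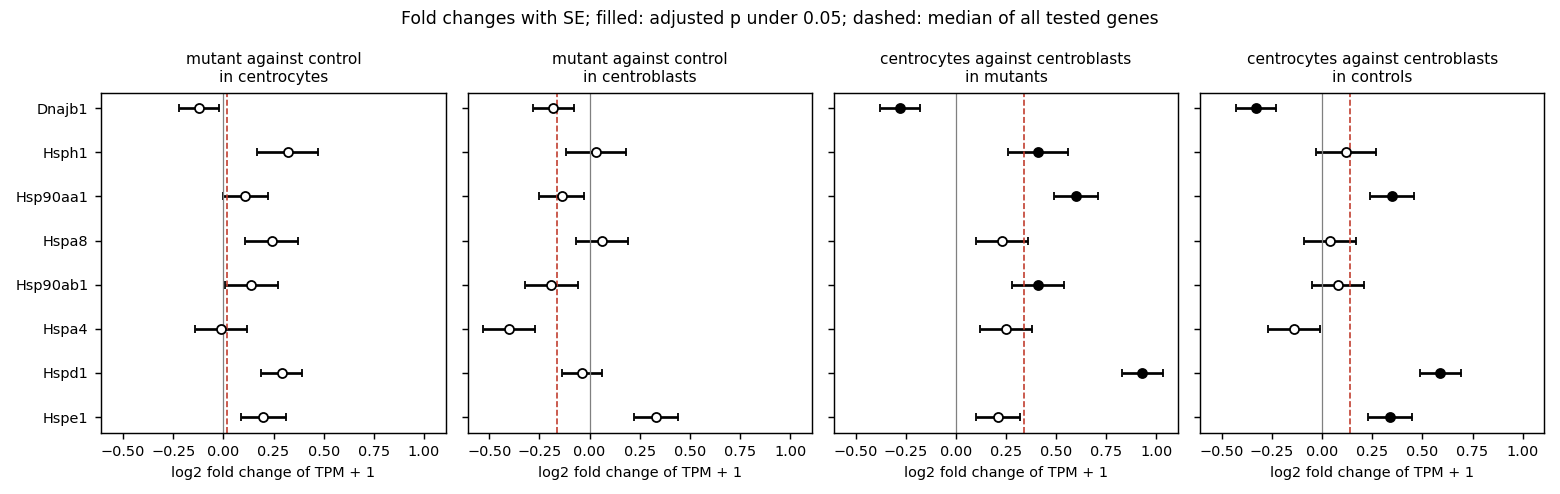
Log2 fold change of TPM + 1 (horizontal axis) with SE for the 8 tested chaperones in the mutant against control comparisons and in the centrocyte against centroblast comparisons. Filled points had an adjusted p under 0.05 and the dashed line is the median of all tested genes. Hspd1 is farthest right in both zone comparisons, Dnajb1 is left of 0 in all 4 panels (its value in the centroblast genotype panel turned to 0.01 with median-of-ratios scaling), and no point is filled in the genotype comparisons.

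The comparison of mutants with controls asks what the Myd88 allele does within a zone. None of the 8 tested chaperones was called in centrocytes or in centroblasts, where 1.2% and 4.29% of all tested genes were called. At an unadjusted p under 0.05 there was 1 chaperone in centrocytes, Hspd1, against 9.61% of genes, and in centroblasts there were 2, Hspe1 and Hspa4, against 30.3% of genes. The median log2 fold change of the 8 was 0.17 in centrocytes and -0.09 in centroblasts, beside 0.02 and -0.16 over all genes. Leaving out 1 library moved the share of all genes called over 0.404% to 2.08% in centrocytes and over 1.29% to 27.2% in centroblasts, highest without mutant centroblast 1. A missing call does not show that a level was unchanged.

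In centrocytes Hspd1 and Hsph1 were the 2 chaperones for which all 5 mutant libraries lay above all 5 controls, a position held by 2.63% of tested genes. Hspd1 was 264 to 336 TPM in mutants, against 221 to 259 TPM in controls, with means of 293 ± 26.6 and 239 ± 16.2 TPM (log2 fold change 0.29 ± 0.10, limma adjusted p = 0.242). Hsph1 was 90.5 to 127 TPM in mutants, against 78 to 87.1 TPM in controls, with means of 104 ± 14.4 and 82.4 ± 3.72 TPM (0.32 ± 0.15, adjusted p = 0.522). Hspd1 was called without mutant centroblasts 4 and 5, which enter this comparison only through the shared spread (adjusted p = 0.031), and with centrocytes fitted alone (adjusted p = 0.0379), settings in which 3.38% and 2.64% of all genes were called. Hsph1 had an adjusted p of 0.0709 and 0.0531 under these 2 settings. Hspa8 averaged 996 ± 124 TPM in mutants and 842 ± 67.2 TPM in controls (0.24, adjusted p = 0.647), and Hspe1 309 ± 32.9 and 269 ± 22.7 TPM (0.20, adjusted p = 0.652). Hsp90ab1, Hsp90aa1, Dnajb1 and Hspa4 had values of 0.14, 0.11, -0.12 and -0.01.

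In centroblasts 2 chaperones moved most, in opposite directions, and neither was called. Hspe1 averaged 269 ± 39.2 TPM in mutants and 213 ± 30.8 TPM in controls (log2 fold change 0.33 ± 0.11, limma adjusted p = 0.0727). Hspa4 averaged 292 ± 72.8 TPM in mutants and 376 ± 42.3 TPM in controls (-0.40 ± 0.13, adjusted p = 0.0724). Leaving out mutant centroblast 1 brought both past the threshold (0.39 and -0.49), as it did 27.2% of all tested genes, and leaving out control centroblast 1 did so for Hspe1 (0.41), where 3.14% of all genes were called. Without mutant centroblasts 4 and 5 the values were 0.23 (adjusted p = 0.34) for Hspe1 and -0.15 (adjusted p = 0.374) for Hspa4. The other 6 lay between -0.19 (Hsp90ab1) and 0.06 (Hspa8), and without those 2 libraries between -0.03 (Dnajb1) and 0.33 (Hsph1, adjusted p = 0.117), with the signs of Dnajb1, Hsp90aa1, Hsp90ab1 and Hspd1 turning under other scalings or without them.

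These 2 libraries moved the chaperones together, apart from Hspe1. In mutant centroblast 5 the difference from the mean of mutant centroblasts 1 to 3 on the log2(TPM + 1) scale was -0.96 for Hsph1, -0.93 for Hspa4 and -0.93 for Hsp90ab1, and -0.50 for the median of all tested genes. Hspe1, whose transcript of 774 bases is the shortest of the 8, was 0.38 above, and the other 7 have transcripts of 2394 to 4618 bases. Among these, Hspa4 (4618 bases) and Hsp90ab1 (2520 bases) had the same value. The part of transcript length was not tested. In mutant centroblast 4 the same genes had the lowest and highest differences, -0.52 for Hsph1 and 0.13 for Hspe1, beside a median of -0.25. The same 2 libraries had the high ribosomal protein shares given above, whose part in the genotype comparison of centroblasts was not tested.

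**Figure D3:**
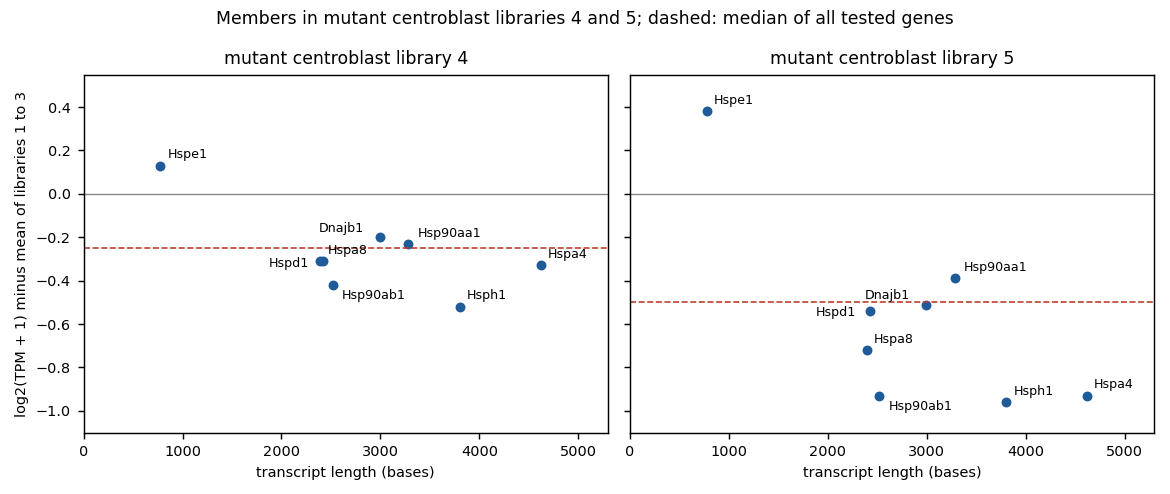
Log2(TPM + 1) of each tested chaperone in mutant centroblast libraries 4 and 5 minus its mean in mutant centroblast libraries 1 to 3 (vertical axis), against transcript length in bases (horizontal axis). The dashed line is the median of all tested genes, -0.25 and -0.50, and Hspe1 is the only chaperone above 0 in either library.

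The difference between the genotype effects of centrocytes and centroblasts was tested directly. None of the 8 chaperones was called, and 2 genes in all were (0.0176%). At an unadjusted p under 0.05 there were 2 chaperones, against 11.6% of genes, Hspd1 (0.33 ± 0.15) and Hspa4 (0.39 ± 0.18), both with a limma adjusted p of 0.403. Without mutant centroblasts 4 and 5 these values were 0.16 and 0.14 (adjusted p = 0.988 for both), and with median-of-ratios scaling 0.12 and 0.18. The median over all genes was 0.18.

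Set against each other within libraries, the exchange factors differed between genotypes in both zones. The log2 ratio of the inducible Hsph1 to the constitutive Hspa4 was -1.73, -1.41, -1.72, -1.82 and -1.90 in mutant centrocytes, against -2.04, -2.02, -1.93, -2.14 and -2.12 in control centrocytes. In centroblasts it was -1.87, -1.62, -2.00, -2.03 and -1.87 in mutants, against -2.31, -2.25, -2.16, -2.36 and -2.46 in controls. In each zone every mutant library lay above every control, and mutant centroblasts 4 and 5 did not stand apart from the other 3. As a linear ratio, Hspa4 exceeded Hsph1 by 3.28-fold in mutant and 4.13-fold in control centrocytes, and by 3.67-fold in mutant and 4.95-fold in control centroblasts. Of all tested genes 2.42% had a ratio to Hspa4 that stood clear in this way in centrocytes, 4.11% in centroblasts and 0.764% in both. Neither gene shares a 50-base word with another gene. Of the 28 ratios between 2 tested chaperones, 6 did not overlap between genotypes in centrocytes, against 5.19% of the ratios between any 2 tested genes, and 2 in centroblasts, against 4.32%. The ratios of Hsph1 to Hspa4 and of Hspd1 to Hspa4 were the 2 that stood clear on the same side in both, against 0.822% of all such ratios, and ratios that share a gene are not independent. No test was made of these ratios.

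**Figure D4:**
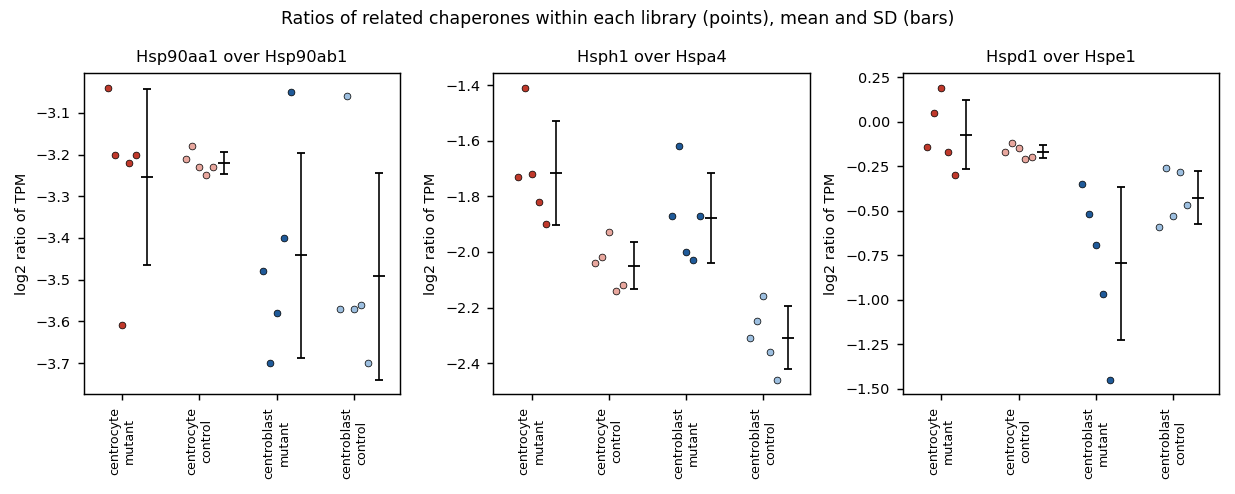
Log2 ratio of TPM (vertical axis) of Hsp90aa1 to Hsp90ab1, Hsph1 to Hspa4 and Hspd1 to Hspe1 in each library (points), with mean and SD of 5 libraries (bars). For Hsph1 to Hspa4 the mutants lie above the controls of the same zone, and for Hspd1 to Hspe1 the centrocytes lie above the centroblasts of the same genotype.

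Over the whole list the inducible and the constitutive members did not separate by group. The mean log2(TPM + 1) of the 5 inducible genes minus that of the 3 constitutive cytosolic genes was -5.62 ± 0.05 in mutant centrocytes and -5.54 ± 0.05 in control centrocytes, and -5.44 ± 0.23 in mutant and -5.56 ± 0.09 in control centroblasts (SD, n = 5 each). With Hspa1a and Hspa1b left out, a setting added after the data were seen, it was -2.84 ± 0.08 and -2.82 ± 0.02 in mutant and control centrocytes, and -2.79 ± 0.11 and -2.87 ± 0.10 in mutant and control centroblasts. Of the 3 inducible genes that could be tested, Hsp90aa1 rose and Dnajb1 fell in centrocytes of both genotypes, and Hsph1 rose in mutants. Of the 3 constitutive genes Hsp90ab1 alone was called, in mutants. Of all tested genes 61.5% were called between zones in mutants and 30.7% in controls. With median-of-ratios scaling the calls of Hsp90aa1 in both genotypes and of Hsph1 and Hsp90ab1 in mutants were lost. Those of Dnajb1 held, and Hspa4 was called lower in control centrocytes.

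The factors that drive heat shock genes were measured too. Hsf1 averaged 45.3 ± 5.58 TPM in mutant and 45.1 ± 5.51 TPM in control centrocytes, and 34.2 ± 5.12 TPM in mutant and 40.4 ± 6 TPM in control centroblasts. It was higher in centrocytes of mutants (log2 fold change 0.40 ± 0.12, limma adjusted p = 0.00813), a call lost without mutant centroblasts 4 and 5 (0.26, adjusted p = 0.078) and with median-of-ratios scaling (0.05). Hsf2, a related factor, was likewise higher there (0.41, adjusted p = 0.0155) and lost its call in the same 2 settings (0.25 and 0.08). The values of Hsf1 and Hsf2 lay near the median of all tested genes, 0.34. In that comparison 48.8% of all tested genes were called higher and 12.6% lower. Hsbp1, which encodes a protein that binds HSF1, was lower in mutant centrocytes than in mutant centroblasts (-0.24, adjusted p = 0.0184), and it was not called without mutant centroblasts 4 and 5 (-0.14). None of the 3 was called in controls or between genotypes. The share of all tested genes called was 30.7% between zones in controls. Between genotypes it was 1.2% in centrocytes and 4.29% in centroblasts.

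Of 15 other genes that HSF1 is known to raise 11 were tested. In mutants 2 were higher in centrocytes than in centroblasts, against 48.8% of all tested genes, the J-domain gene Dnajb4 (log2 fold change 0.52, limma adjusted p = 0.00806) and Chordc1, an HSP90-binding protein (0.36, adjusted p = 0.00988). In controls none was called between zones, against 30.7% of all tested genes. Both calls were lost with median-of-ratios scaling (0.21 and 0.01), and Chordc1 also without mutant centroblasts 4 and 5. Their median was 0.20 in mutants and 0.16 in controls, beside 0.34 and 0.14 over all genes.

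The HSP90 co-chaperones, all 15 tested, were called higher in 6 and lower in 2 cases in mutant centrocytes, and in 2 and 1 in control centrocytes. Called in this way were 48.8% and 12.6% of all tested genes in mutants, and 21.2% and 9.48% in controls. The lists overlap, and Chordc1 is counted here as well as among the HSF1 targets. Dnajb4 is likewise counted among the HSF1 targets and the HSP70 partners. Ppid, a co-chaperone of the cyclophilin family, was 114 ± 7.86 TPM in mutant centrocytes and 65.7 ± 6.01 TPM in mutant centroblasts (log2 fold change 0.79, limma adjusted p = 1.02e-07). In controls it was 102 ± 5.98 TPM in centrocytes and 64.6 ± 4.15 TPM in centroblasts (0.65, adjusted p = 3.52e-06). Pih1d1, a subunit of the R2TP complex that works with HSP90, was lower in centrocytes of mutants (-0.68, adjusted p = 5.55e-06) and of controls (-0.37, adjusted p = 0.00558). The phosphatase Ppp5c was higher in mutants (0.64, adjusted p = 2.73e-05). These calls of Ppid, Pih1d1 and Ppp5c held in every alternative run. Ahsa2 was called in controls (0.33, adjusted p = 0.0314), a call lost with median-of-ratios scaling (0.19, adjusted p = 0.156) and when single control libraries were left out (lowest 0.27). Ahsa2 was also called higher in mutant centrocytes.

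Among 21 HSP70 partners, 9 were higher and 3 lower in mutant centrocytes, and 1 was higher and 3 were lower in control centrocytes. Of all tested genes 61.5% were called in mutants and 30.7% in controls. Bag1, an exchange factor of HSP70, was lower in centrocytes by -0.27 in both genotypes (limma adjusted p = 0.003 in mutants and 0.00761 in controls). The J-domain gene Dnajb2 was low but higher in control centrocytes, at 4.27 ± 0.591 TPM against 2.34 ± 0.584 TPM in control centroblasts (0.67, adjusted p = 0.00426). Dnajb2 was also called higher in mutant centrocytes. Dnajb5 was 16.6 ± 1.3 TPM in mutant centrocytes and 9.77 ± 2.99 TPM in mutant centroblasts (0.76, adjusted p = 5.32e-04). Dnajc9, a histone chaperone with a J domain, was lower in control centrocytes (-0.28, adjusted p = 0.0237), a call lost without control centroblast 1 (-0.24) and without control centrocyte 2 or 3 (-0.26 and -0.24). Dnajc9 was also called lower in mutant centrocytes. Dnajc7 was higher in mutant centrocytes (0.34, adjusted p = 0.00264), at the median of all genes, and its sign turned with median-of-ratios scaling (-0.02).

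The cytosolic folding chamber TRiC and its feeder prefoldin had 13 members tested. In mutant centrocytes 4 were lower and 2 higher, and in control centrocytes 3 were lower and none higher. Of all tested genes 12.6% were lower and 48.8% higher in mutants, and 9.48% were lower and 21.2% higher in controls. The chamber subunit Cct7 was 342 ± 21.8 TPM in control centrocytes and 420.4 ± 19.4 TPM in control centroblasts (log2 fold change -0.30, limma adjusted p = 0.00237). The prefoldin subunit Pfdn1 was lower in mutants (-0.48, adjusted p = 6.61e-05) and in controls (-0.24, adjusted p = 0.0315), where the call was lost in 5 of the fits that left out a library (-0.19 at the smallest). Vbp1, another prefoldin subunit, was lower in controls (-0.33, adjusted p = 0.0396), with the call lost in 6 such fits (-0.22 at the smallest), with no filter on low genes (adjusted p = 0.0591) and without the trend and robust options (adjusted p = 0.0549). Vbp1 was also called lower in mutant centrocytes. In mutants Pfdn4 was lower (-0.69, adjusted p = 0.00147), and Cct6a was higher (0.56, adjusted p = 6.40e-04) but not with median-of-ratios scaling (0.21, adjusted p = 0.0645).

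The other mitochondrial chaperones and proteases, 12 tested, had 4 members higher and 1 lower in mutant centrocytes, and 1 higher and 1 lower in control centrocytes, against 61.5% of all tested genes called in mutants and 30.7% in controls. Hspa9, the HSP70 of the mitochondrial matrix that hands imported proteins to Hspd1, was 353 ± 22.2 TPM in mutant centrocytes and 189.5 ± 51.5 TPM in mutant centroblasts (log2 fold change 0.94 ± 0.14, limma adjusted p = 1.11e-05). In controls it was 295 ± 21.3 TPM in centrocytes and 202 ± 14.9 TPM in centroblasts (0.55 ± 0.14, adjusted p = 0.00487). Its size was thus close to that of Hspd1 in each genotype, and without mutant centroblasts 4 and 5 it was 0.65. Grpel1, the exchange factor of Hspa9, ran the other way, with -0.39 in mutants (adjusted p = 3.19e-04) and -0.34 in controls (adjusted p = 0.00235). The membrane protease gene Afg3l2 was higher in mutants (0.68, adjusted p = 0.00137). The calls of Hspa9, Grpel1 and Afg3l2 held in every alternative run. None of the genes of these chaperone and factor lists was called between genotypes in either zone or for the difference of the effects. Few genes were called there at all: 1.2% of all tested genes in centrocytes, 4.29% in centroblasts and 0.0176% for the difference.

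**Figure D5:**
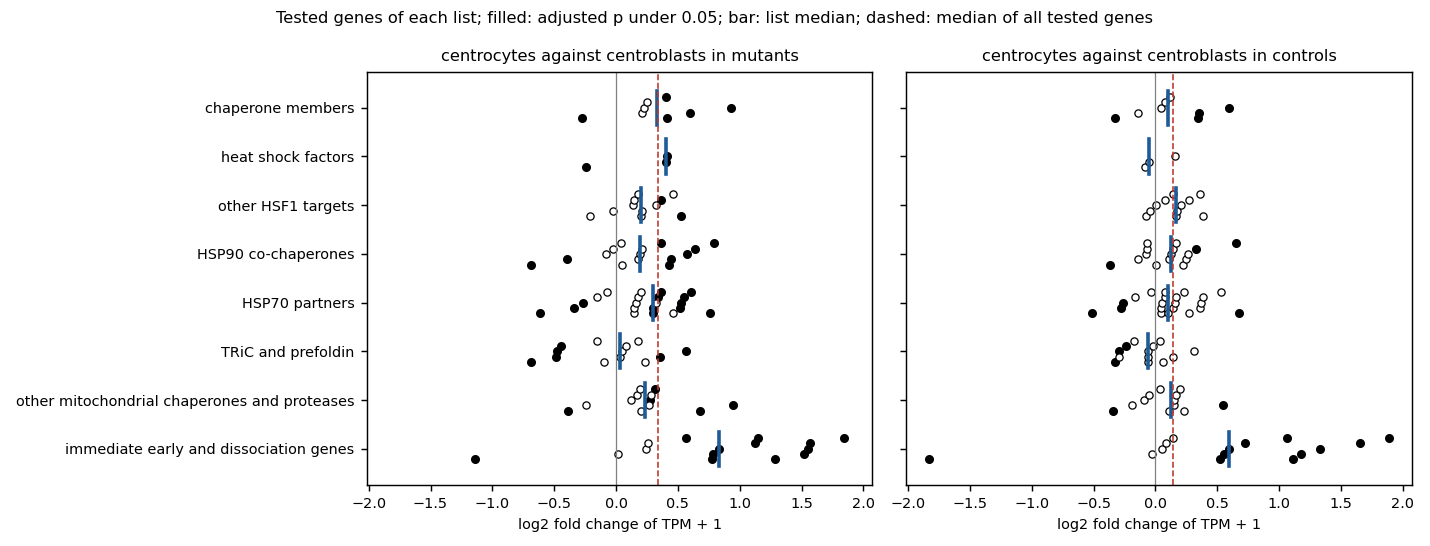
Log2 fold change of TPM + 1 (horizontal axis) of every tested gene of the 10 chaperones and 7 further lists, in centrocytes against centroblasts of mutants and of controls. Filled points had an adjusted p under 0.05, blue bars are list medians and the dashed line is the median of all tested genes. Points of most chaperone lists fall on both sides of that line, and the immediate early genes lie farthest from it.

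Hspd1 had the largest spread of the 10 over the 20 libraries (SD 0.43 on the log2 scale). The 5 genes with the most similar course over these libraries, by the root mean square difference of centred log2(TPM + 1), were Nop58 (0.0859), Ncl (0.0902), D19Bwg1357e (0.0983), Ftsj3 (0.102) and Gtpbp4 (0.105). Nop58, a core protein of box C/D small nucleolar particles, averaged 361 TPM in mutant and 311 TPM in control centrocytes, and 203 TPM in mutant and 211 TPM in control centroblasts. Ncl, which encodes nucleolin, averaged 609.7, 519, 312 and 348 TPM in the same groups. All 20 libraries enter this measure, so it follows zone, genotype and library composition at once.

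Immediate early genes, which rise within minutes of a stimulus and also during tissue dissociation, were followed as a possible sign of handling. Stimuli received in the mouse and handling cannot be told apart here. Of 15 tested, 11 were higher and 1 lower in mutant centrocytes than in mutant centroblasts, and 10 higher and 1 lower in control centrocytes than in control centroblasts, where 48.8% and 21.2% of all tested genes were higher. Among them Nr4a1 had a log2 fold change of 1.85 in mutants (limma adjusted p = 2.02e-07) and 1.89 in controls (adjusted p = 4.26e-07). The 1 lower gene was Atf3 in both genotypes, with -1.83 in controls (adjusted p = 9.46e-07). It was 0.668 ± 0.371 TPM in control centrocytes and 4.94 ± 1.42 TPM in control centroblasts. Between genotypes 3 of the 15 were lower in mutant centrocytes, Fos (-1.11, limma adjusted p = 0.00197), Dusp1 (-0.81, adjusted p = 0.00165) and Ppp1r15a (-0.61, adjusted p = 0.0247). In mutant centroblasts 10 were lower, led by Dusp1 (-1.02, adjusted p = 9.51e-05) and Fos (-1.34, adjusted p = 2.25e-04). Of all tested genes 0.307% were called lower in mutant centrocytes and 3.38% in mutant centroblasts. The call of Ppp1r15a in centrocytes was lost in 7 of the fits that left out a library (-0.52 at the smallest). The summed level of the 16 listed was 1169 to 1435 TPM in mutant and 1555 to 1791 TPM in control centrocytes, and 494 to 840.4 TPM in mutant and 944 to 1260.1 TPM in control centroblasts, with no overlap between genotypes. The heat-inducible Hspa1a and Hspa1b stayed at or under 0.643 TPM in every one of these libraries. The part of handling in the chaperone values was not tested.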

How the data were processed

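RNA was sequenced from sorted cells, 20 libraries in 4 groups of 5, with a stranded mRNA kit per the labels' protocols. The deposited tables give TPM per gene symbol, and STAR and build mm10 are named in the submitters' processing notes as used by the authors. Not given in the sources used here are the annotation, the counter, versions and the treatment of reads with several matches. TPM keeps no read depth, so the depth per library is unknown and no counting interval is given.

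Tests used limma (version 3.58.1, R version 4.3.3, two-sided, empirical Bayes with trend and robust) on log2(TPM + 1) with 4 group means and 16 residual degrees of freedom, over the 11386 genes that reached 1 TPM in 5 or more libraries, adjusted by Benjamini-Hochberg over all of them (threshold 0.05). Calls of chaperones are read against the share of all genes called. The zone comparisons and the genotype comparisons share libraries. The fit was tested on simulated data.

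The members, gene lists and groups of inducible and constitutive genes were chosen with earlier results of these data known. Named genes were all 10 members, Hsf1 and Hsf2, the called genes of each list (up to 3 per comparison, by adjusted p) and the 5 genes nearest to the most variable member. Hsbp1 was named because the calls of its list were few. GENCODE M21 gave the positions (GRCm38, to which mm10 corresponds) and the transcripts searched for shared words of 50 bases. Promoter windows are from RefSeq.

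Alternatives were pseudocounts of 0.1 and 5, no filter and a filter at 5 TPM, median-of-ratios scaling, each library left out, mutant centroblasts 4 and 5 left out, the groups of a comparison alone, eBayes without trend and robust, a replicate block, and Hspa1a and Hspa1b summed. Replicate numbers were to be used as pairs only if all same-numbered centrocyte and centroblast libraries deviated together with a correlation over 0.1, which they did not.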

Additional observations from a re-analysis of the deposited data

Results flagged for a closer look

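In 3 of 40 groups of 5 libraries, one for each chaperone and group, 1 library stood farther from the rest than Dixon's 95% critical value of 0.71 allows. All 3 were of the heat-inducible HSP70 copies. Hspa1a reached 0.638 TPM in control centroblast library 5 and 0.346 TPM in control centrocyte library 5. Hspa1b reached 0.643 TPM in mutant centroblast library 1. Each is under 1 TPM, and chance flags about 1 in 20 groups.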

How the results depend on the processing

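With median-of-ratios scaling 2 chaperones were called between zones in mutants, Hspd1 and Dnajb1, against 5 in the fit reported. With the groups alone there were also 2, Hspd1 and Hsp90aa1. Of all tested genes 58.5% and 51.4% were called in these 2 settings, against 61.5% in the fit reported. Between genotypes in centrocytes 1 was called without mutant centroblasts 4 and 5 and 1 with the groups alone (Hspd1 in both), against 0. Of all tested genes 3.38% and 2.64% were called there. Over fits that left out a library the count for the genotype in centroblasts ran over 0 to 2. It was 1 without control centroblast 1 and 2 without mutant centroblast 1, where 3.14% and 27.2% of all genes were called. For the genotype in centrocytes and for the difference it was 0 in every such fit. Between zones it ran over 2 to 4 in controls (2 without control centroblast 4) and over 4 to 6 in mutants. Of all tested genes 23.2% to 41.5% were called between zones in controls in these fits, with 27.2% without control centroblast 4. In mutants 55.3% to 64.5% were called.

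The replicate numbers were not used as pairs, because only 4 of 5 same-numbered centrocyte and centroblast pairs correlated over 0.1 in each genotype (-0.0168 to 0.259 in controls and -2.93e-05 to 0.269 in mutants). Libraries of different numbers had a mean correlation of -0.0404 in controls and -0.0433 in mutants. Failing this rule does not show that same-numbered libraries were unpaired. In the zone comparisons and for the difference the replicate block tied these pairs. In the genotype comparisons it tied mutant and control libraries of the same number within a zone, a pairing that was not checked. With the block 2 chaperones were called between genotypes in centrocytes, Hspd1 (limma adjusted p = 0.0346) and Hsph1 (adjusted p = 0.016), where 5.79% of all tested genes were called. Between zones in mutants 6 were called, Hspa8 among them (0.23, adjusted p = 0.0328), where 64.3% of all tested genes were called. The other counts did not change.

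Signs turned as follows, on the log2 scale, each for values that were not called. With median-of-ratios scaling the genotype effect in centroblasts was 0.01 for Dnajb1, 0.05 for Hsp90aa1 and 0.15 for Hspd1, the difference was -0.03 for Hspa8 and -0.16 for Dnajb1, the zone effect in controls was -0.10 for Hspa8, -0.02 for Hsph1 and -0.06 for Hsp90ab1, and in mutants -0.13 for Hspa8, -0.15 for Hspe1 and -0.10 for Hspa4. Dnajc7 turned to -0.02 in mutants although it had been called. Without mutant centroblasts 4 and 5 the genotype effect in centroblasts was 0.08 for Hsp90ab1 and 0.13 for Hspd1, and the difference was -0.02 for Hspa8, -0.09 for Dnajb1 and -0.01 for Hsph1. Over fits that left out a library, signs turned within -0.05 to 0.19 (Hspa8), -0.07 to 0.20 (Hsph1) and -0.09 to 0.05 (Hspd1) for the genotype in centroblasts, -0.03 to 0.01 for Hspa4 in centrocytes, -0.04 to 0.11 for Dnajb1 in the difference and -0.03 to 0.12 for Hspa8 between zones in controls.

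The mean inducible minus constitutive level was -6.56 and -6.37 in mutant and control centrocytes and -6.24 and -6.35 in mutant and control centroblasts with a pseudocount of 0.1. Without Hspa1a and Hspa1b it was -2.84, -2.82, -2.79 and -2.87 in the same order. With no pseudocount it could not be computed where Hspa1a was 0. The cause of these changes was not tested. TPM near 0 limits Hspa1a and Hspa1b: with no filter Hspa1a was called lower in mutant centrocytes than in mutant centroblasts (-0.33, adjusted p = 0.0195), with every value under 1 TPM.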
